A study of Schizosaccharomyces pombe with 12 samples.

Results

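The RNAs described here are the fission yeast non-coding genes with a systematic number of 2000 or above, taken as every gene of the count table whose identifier starts with SPNCRNA and whose number after the dot is at least 2000. The rule takes 5768 of the 12683 genes listed and 5768 of the 7212 SPNCRNA genes. The other 1444 SPNCRNA genes, with lower numbers, served for comparison. The rule uses the identifier alone and no measured value.

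Polyadenylated RNA of Schizosaccharomyces pombe was sequenced as 12 stranded libraries, 2 for each of 6 groups. The groups were ubp8 mutant cells treated with 1 mM hydrogen peroxide for 30 min, untreated ubp8 cells, treated and untreated ubp16 mutant cells, and treated and untreated cells of the WT strain 972, all grown in the rich medium YE5S. The series' design text calls the mutants deleted strains without saying which part of each gene is missing. Nothing states that replicates are independent cultures, and a p-value here measures only the spread between these samples. The series' title sets the mutants in a study of histone H2B ubiquitination at stress genes.

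Fission yeast transcribes much of its genome on both strands. Many of the resulting non-coding RNAs lie antisense to a protein-coding gene or start beside its promoter and run the other way, and they are usually scarce because the nuclear exosome, termination factors and RNA interference remove or silence them. Ubp8 is the ubiquitin protease of the SAGA co-activator, which takes ubiquitin off histone H2B, and Ubp16 is another ubiquitin-specific protease.

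Most of the high-numbered RNAs were scarce. Their median was 2.17 counts a library, against 47.1 for the lower-numbered RNAs and 893 for protein-coding genes. No read fell on 335 of them in any library, 1257 had a mean of at least 10 counts, 204 had a mean of at least 50, and none reached 1000. Per length, their median level was 0.349 RPKM (reads per kilobase, scaled to library size), against 3.30 RPKM for the lower-numbered RNAs and 41.7 RPKM for coding genes. Their median length was 533 bases and that of the lower-numbered RNAs 1050 bases.

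The filter on low counts kept 1964 of the 5768 high-numbered RNAs (34.0%) and 1166 of the 1444 lower-numbered ones (80.7%). The other 3804 high-numbered RNAs were not tested. An RNA that is well expressed in 1 group alone can pass this filter, so the 1964 tested are not a neutral sample of the 5768.

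The reference annotation held 5737 of the high-numbered RNAs. Of these, 4598 (80.1%) overlapped a coding gene on the other strand, against 58.9% of the lower-numbered RNAs, and 3026 had at least 95% of their length opposite a coding gene. A further 397 were divergent, meaning that they started within 500 bases of the start of a coding gene on the other strand and pointed away from it. An RNA that met this condition but also overlapped a coding gene on the other strand was counted as antisense only. SPNCRNA.3821, which starts 202 bases from adg2 and lies opposite ted1, is an example. The remaining ones were 738 in other places and 4 that overlapped a coding gene on the same strand. Antisense RNA was counted apart from the reads of the gene opposite: for the 100 most strongly expressed coding genes with such an RNA fully opposite, the RNA's reads per kilobase had a median of at most 0.0395% of the gene's in any library.

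By mean RPKM, the highest of the RNAs with at least 50 counts was SPNCRNA.7452, antisense to SPCC663.09c, at 31.9 RPKM, with a range over the libraries of 0 to 225 RPKM. That mean comes mostly from treated ubp16 cells, with 1178 and 605 counts, and the untreated libraries held 0 to 4 counts each. SPNCRNA.5756 followed at 22.2 RPKM (3.41 to 96.5), and then SPNCRNA.4795 at 18.0 RPKM (6.18 to 49.6). By raw count the highest was prt2 (SPNCRNA.9001), a non-coding RNA of the phosphate gene cluster, with a mean of 383 counts. It overlaps pho84 on the same strand, and pho84 is listed at 0 in every library, so the division of reads between them is uncertain.

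Reads on both mutated genes were fewer in the libraries labelled as the matching mutant but not absent, although the strains are described as deleted; the groups are called by their labels throughout. The ubp8 transcript had 10.6 and 9.24 CPM (counts scaled to library size by TMM) in treated and 9.49 and 8.34 CPM in untreated ubp8 cells, against 29.9 and 37.5 CPM in treated and 33.9 and 34.1 CPM in untreated WT cells. The ubp16 transcript had 9.38 and 12.99 CPM in treated and 22.2 and 24.95 CPM in untreated ubp16 cells, against 20.5 and 25.6 CPM in treated and 46.7 and 54.3 CPM in untreated WT cells. The catalase gene ctt1, a standard peroxide target, rose with treatment in all 3 strains, by 4.61 in ubp8, 3.75 in ubp16 and 4.32 in WT on the log2 scale. Library totals ran from 9904056 to 14054746 counts, at which 3 counts come to at most 0.316 CPM, a floor that covers counting error only. Between the libraries of a group, log2 CPM correlated at 0.994 to 0.996 across all tested genes and at 0.881 to 0.931 across the tested high-numbered RNAs. Of 5 genes of M mating-type cells, mfm1, mfm2 and mam2 were higher in each ubp16 library than in the WT libraries of the same treatment; the 5 summed to 60.8 to 73.4 CPM in treated and 115 to 139 CPM in untreated ubp16 cells, to 28.5 to 31.1 CPM in treated and 51.2 to 77.8 CPM in untreated ubp8 cells, and to 21.7 to 25.4 CPM in treated and 40.6 to 44.1 CPM in untreated WT cells. No M-cell gene was at 0 in any library. The 2 P-cell genes map2 and map3, also above 0 throughout, summed to 6.13 to 8.36 CPM in treated and 11.1 to 12.05 CPM in untreated ubp8 cells, 7.49 to 9.10 CPM in treated and 8.71 to 9.71 CPM in untreated ubp16 cells, and 3.06 to 3.58 CPM in treated and 8.56 to 8.59 CPM in untreated WT cells. In bulk libraries fewer cells of a type and less RNA per cell cannot be told apart, and the part of mating type in the results was not tested.

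The high-numbered RNAs took a larger share of the library in untreated ubp8 cells than in any other group. They held 0.681% and 0.744% of all gene counts there, against 0.385% and 0.334% in untreated WT cells, a ratio of 1.98 between the group means. The lower-numbered RNAs had a ratio of 1.42 in the same comparison. After peroxide the share was 0.450% and 0.459% in ubp8 cells, against 0.388% and 0.328% in WT cells, a ratio of 1.27. In ubp16 cells it was 0.372% and 0.318% after peroxide and 0.391% and 0.311% without, which overlaps the WT values of the same treatment. More of them were detected as well: 4420 and 4506 had at least 1 read in the untreated ubp8 libraries, against 3627 and 3620 in the untreated WT libraries. Detection depends on depth, and the totals were 12897546 and 13008462 counts in the untreated ubp8 libraries, against 9904056 and 11784852 in the untreated WT libraries. The deepest library, the first of treated ubp8 cells, had 14054746 counts and 3959 of the RNAs detected. Shares are described here without a test.

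**Figure D1:**
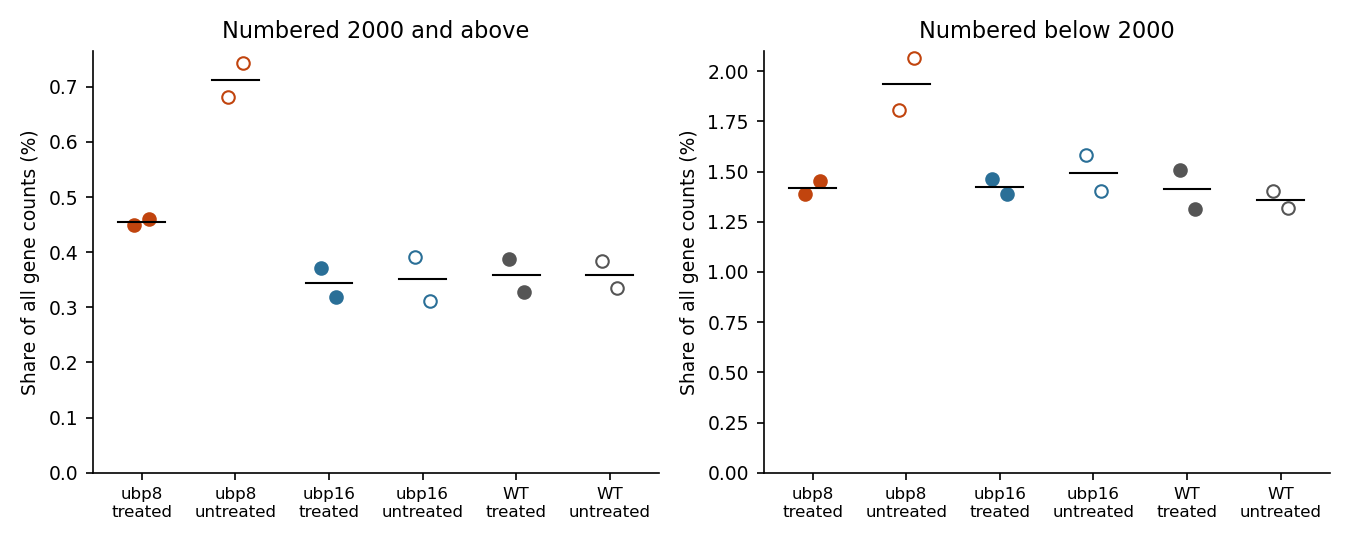
Share of all gene counts (%) held by non-coding RNAs numbered 2000 and above (left) and below 2000 (right), 1 point per library (filled: treated, open: untreated) with a bar at the group mean, n = 2. Both untreated ubp8 libraries, at 0.681% and 0.744%, lie above the other 10, which span 0.311% to 0.459%.

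A test was run on the counts of all 8166 genes that passed the filter, and a gene is called higher or lower where its Benjamini-Hochberg adjusted p from edgeR's quasi-likelihood test was under 0.05. For single RNAs, "rose" and "fell" are used only where the call also held under every alternative processing that gave a value; other changes are given as values. Log2 changes are mutant over WT or treated over untreated, with the SE.

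In untreated ubp8 cells 462 of the 1964 tested RNAs were higher than in untreated WT cells and 9 were lower. Over all tested genes, 15.1% were higher and 23.8% lower in this comparison, or 38.9% either way. The median log2 change was 0.73 for the high-numbered RNAs, 0.61 for the lower-numbered RNAs (436 higher and 27 lower of 1166) and -0.21 for coding genes. Coding genes of comparably low counts gave 43 higher and 2 lower of the 160 that had a mean under 50 counts, and a median of 0.68. Among the high-numbered RNAs, the 204 with a mean of at least 50 counts gave 107 higher and 2 lower, and a median of 0.74. The 1760 below that mean gave 355 higher and 7 lower, and a median of 0.73. Whether low abundance by itself is tied to the shift was not tested. By place, 380 of 1673 antisense RNAs were higher and 8 lower, 40 of 144 divergent RNAs were higher and none lower, and 39 of 139 in other places were higher and 1 lower. The number higher was 176 without the second untreated ubp8 library, 188 without the second and 292 without the first untreated WT library, and 302 by DESeq2. Scaled by library totals, the median of all tested genes was 0.28 in place of -0.01 and that of the high-numbered RNAs 1.02.

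SPNCRNA.2112 illustrates the change; it lies antisense to cdc12, which encodes the formin of the cytokinetic ring. It had 16.6 and 19.6 CPM in untreated ubp8 cells, against 3.13 and 3.27 CPM in untreated WT cells. Both mutant libraries lay far above both WT libraries, and the RNA rose by 2.50 ± 0.23 (log2, SE; adjusted p 9.8e-06). SPNCRNA.5025, wholly antisense to the cleavage and polyadenylation factor gene cft1, had 11.9 and 8.77 CPM in untreated ubp8 cells, against 1.95 and 1.41 CPM in untreated WT cells, a rise of 2.62 ± 0.33. SPNCRNA.4473, antisense to pcm2, had 11.4 and 11.1 CPM in untreated ubp8 cells, against 2.15 and 3.002 CPM in untreated WT cells, a rise of 2.11 ± 0.24. Neither RNA overlapped between the groups. The genes opposite did not move as one: cft1 changed by -0.39, cdc12 by -0.10 and pcm2 by 2.49 on the log2 scale. The size for pcm2 rests on 7 and 5 counts in the untreated WT libraries, against 49 and 51 in the untreated ubp8 libraries. The other RNAs named for this comparison were SPNCRNA.5172, which started 210 bases from the methionyl-tRNA synthetase gene rar1 and rose by 2.10, SPNCRNA.2171 (antisense to dre4, 1.92), SPNCRNA.2621 (antisense to the chromatin remodeller gene fft1, 1.86), SPNCRNA.5799 (divergent from the Ras exchange factor gene efc25, 1.80) and SPNCRNA.6816 (antisense to vsl1, 1.79). None of the 9 called lower met the conditions for naming.

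**Figure D2:**
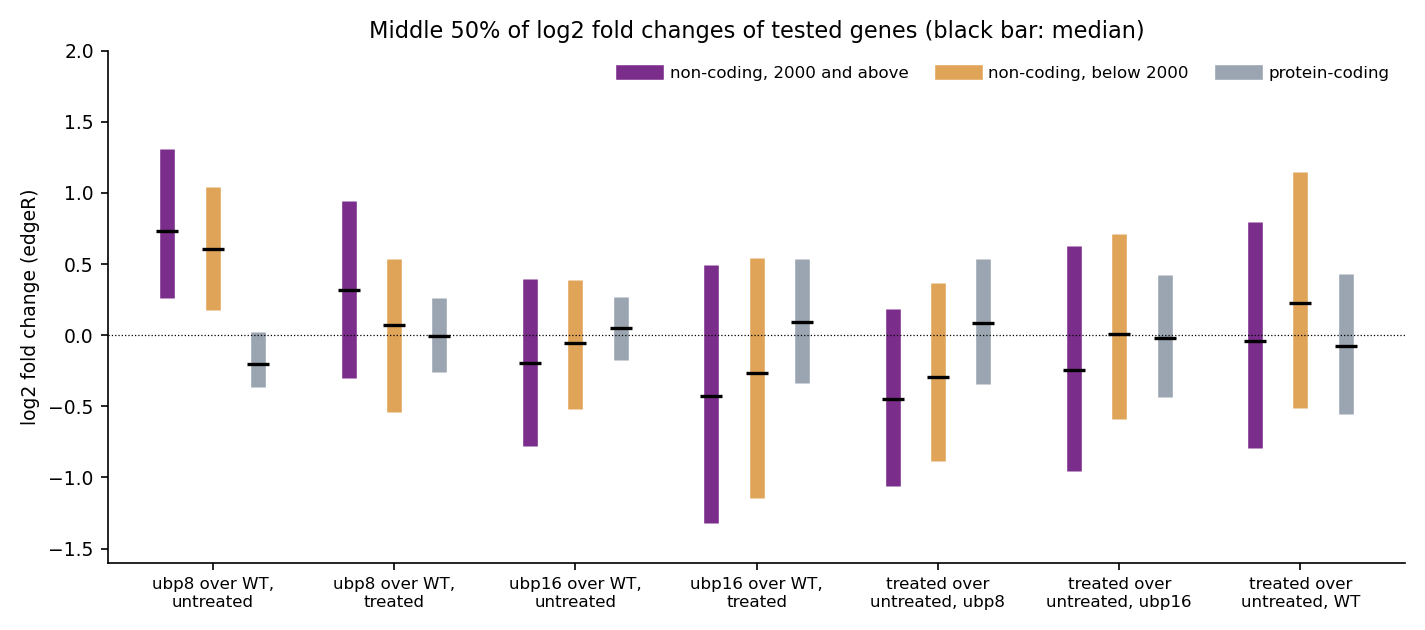
Middle 50% of the log2 fold changes of tested genes (coloured bars) with the median (black), for RNAs numbered 2000 and above (n = 1964), those below 2000 (n = 1166) and coding genes (n = 4954), in each comparison. In untreated ubp8 over WT the medians are 0.73, 0.61 and -0.21.

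After peroxide fewer RNAs were called higher in ubp8 cells, and more were called lower, than without it; whether the strains' difference itself changed is tested further on. In treated ubp8 cells 223 were higher and 66 lower than in treated WT cells, where 16.6% of all tested genes were higher and 15.7% lower (32.3% either way), and the median log2 change was 0.32. The median was 0.20 without the second treated ubp8 library and 0.04 with no filter. The number higher ran between 119 and 141 when any 1 of the 4 libraries compared was left out and was 148 by DESeq2. The number lower was 24 without the first treated WT library and 24 without the first treated ubp8 library.

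The same cft1 and pcm2 antisense RNAs were among the 8 named as higher. SPNCRNA.5025 had 8.80 and 7.22 CPM in treated ubp8 cells, against 0.737 and 0.493 CPM in treated WT cells, and rose by 3.69 ± 0.41. SPNCRNA.4473 rose by 2.59, SPNCRNA.4929, antisense to the TOR kinase gene tor2, by 2.17, SPNCRNA.7732, wholly antisense to utp25, by 2.15, and SPNCRNA.3744, antisense to the mitochondrial NADH kinase gene pos5, by 2.06. SPNCRNA.6621 lies antisense to nrg1 over 99.3% of its length, and both strands moved the same way: the RNA rose by 1.96 and nrg1 changed by 2.41. SPNCRNA.3639, near mrs3 and prr1, rose by 1.96 and SPNCRNA.3249, antisense to the nuclear pore gene nup132, by 1.94.

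Of the 7 RNAs named as lower in treated ubp8 cells, 6 were also called higher with peroxide in WT cells, a comparison that shares the treated WT libraries. SPNCRNA.5756, divergent from the splicing factor gene prp1, had 7.48 and 10.5 CPM in treated ubp8 cells, against 77.03 and 67.7 CPM in treated WT cells, a log2 change of -3.02 ± 0.25. In untreated cells its levels overlapped, 7.87 and 7.85 CPM in ubp8 and 8.30 and 5.92 CPM in WT. SPNCRNA.5571, wholly antisense to wdr7, fell by 1.68, SPNCRNA.4795 by 1.49, SPNCRNA.3662 by 1.33, SPNCRNA.2492 by 1.25, SPNCRNA.3754 by 1.23 and prt2 by 1.16. For prt2 the levels were 40.2 and 34.2 CPM in treated ubp8 cells, against 88.2 and 78.4 CPM in treated WT cells.

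In untreated cells the ubp16 mutant differed from WT in both directions. In untreated ubp16 cells 74 of the tested RNAs were higher and 104 lower than in untreated WT cells, where 14.3% of all tested genes were higher and 11.3% lower (25.6% either way). These shares, 3.77% and 5.30% of the RNAs tested, lie below the ones for all genes, but they differed by abundance. Of the 204 RNAs with a mean of at least 50 counts 12.3% were higher and 15.2% lower. Of the 1760 below that mean 2.78% were higher and 4.15% lower. The number higher was 28 and 37 without the second and the first untreated WT library, 42 without the second untreated ubp16 library, and 31 when only these libraries were fitted. The number lower was 60 without the second untreated WT library, 66 without the second untreated ubp16 library and 64 when only these libraries were fitted.

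SPNCRNA.6826 lies antisense to ubp16 itself, with 41.1% of its length opposite that gene. It had 19.8 and 19.6 CPM in untreated ubp16 cells, against 2.34 and 2.21 CPM in untreated WT cells, without overlap, and rose by 3.11 ± 0.26. After peroxide it had 7.54 and 6.40 CPM in ubp16 cells, against 2.63 and 1.68 CPM in WT cells, and rose by 1.70 ± 0.29. The sources used here do not say what the ubp16 deletion removes at this locus, and ubp16 reads remained in these libraries.

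SPNCRNA.4594, antisense to the vacuolar iron transporter gene pcl1, had 35.5 and 14.9 CPM in untreated ubp16 cells, against 2.05 and 1.68 CPM in untreated WT cells, a log2 change of 3.77 ± 0.42. SPNCRNA.2284, wholly antisense to the DNA repair helicase gene rad15, had 12.7 and 14.7 CPM in untreated ubp16 cells, against 1.46 and 1.94 CPM in untreated WT cells, and rose by 2.98 ± 0.26. Both RNAs stayed high after treatment. There pcl1 had 109 and 146 raw counts in the ubp16 libraries, against 296 and 385 in the WT libraries. For rad15 the treated counts were 870 and 766 in ubp16, against 530 and 523 in WT libraries. In untreated cells these 2 genes did not differ beyond their spread: pcl1 changed by -0.17 and rad15 by 0.06. The other named rises were SPNCRNA.6127 (with 13.2% of its length opposite the hexose transporter gene ght2, 2.23), SPNCRNA.5799 (1.94), SPNCRNA.4116 (antisense to the kinesin gene klp3, 1.89), SPNCRNA.2781 (antisense to kha1, 1.42) and SPNCRNA.2539 (antisense to caa1, 1.42).

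Of the RNAs lower in untreated ubp16 cells, 3 named ones lay opposite genes that were called higher. SPNCRNA.5515 lies antisense to the autophagy gene atg2402 over 92.0% of its length. It had 0.425 and 0.583 CPM in untreated ubp16 cells, against 7.13 and 7.77 CPM in untreated WT cells, and fell by 3.89 ± 0.36. The gene had 17.9 and 19.3 CPM in untreated ubp16 cells, against 10.4 and 7.06 CPM in untreated WT cells, a change of 1.10. SPNCRNA.2492, wholly antisense to gto2, had 1.63 and 1.36 CPM in untreated ubp16 cells, against 8.89 and 8.74 CPM in untreated WT cells. It fell by 2.54 ± 0.28. On the other strand gto2 had 147 and 191 CPM in untreated ubp16 cells, against 40.9 and 40.97 CPM in untreated WT cells, a change of 2.04. In both pairs no library of 1 strain reached the range of the other. SPNCRNA.3704 fell by 1.74 while SPAC4H3.03c, wholly opposite, changed by 4.22. SPNCRNA.4254 fell by 3.68, SPNCRNA.2111 by 2.33, SPNCRNA.2746 by 1.90, SPNCRNA.2837 by 1.88 and SPNCRNA.5332 by 1.73. For SPNCRNA.4254, antisense to the arginine methyltransferase gene rmt1, the level rested on 5 counts and 1 count in the untreated ubp16 libraries.

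After peroxide more RNAs were called between ubp16 and WT cells, mostly as lower. In treated ubp16 cells 214 RNAs were higher and 387 lower than in treated WT cells, where 28.7% of all tested genes were higher and 26.5% lower (55.2% either way), with a median log2 change of -0.43. The median was -0.23 without the first treated WT library and -0.07 with no filter. Divergent RNAs were mostly on the lower side, with 13 higher and 42 lower of 144. SPNCRNA.7452, wholly antisense to SPCC663.09c, had 108 and 60.5 CPM in treated ubp16 cells, against 0.316 and 1.48 CPM in treated WT cells, from 3 and 15 counts. It was called higher, and with so few counts in WT no fold is given. It had 9.02 and 4.12 CPM in treated ubp8 cells and at most 0.388 CPM in any untreated library. SPNCRNA.3639 had 166 and 137 CPM in treated ubp16 cells, against 4.31 and 3.95 CPM in treated WT cells, a rise of 5.20 ± 0.25. This RNA ends 324 bases before prr1, a regulator of the oxidative stress response, and prr1 changed by 0.14.

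The other named rises in treated ubp16 cells were SPNCRNA.4594 (4.36), SPNCRNA.4116 (3.43), SPNCRNA.2146 (3.05), SPNCRNA.2284 (2.78), SPNCRNA.3744 (2.63) and SPNCRNA.7417 (2.54). Of these, SPNCRNA.2146 lies wholly antisense to tsc2, which encodes a regulator of TOR signalling, and SPNCRNA.7417 to hmg1, the sterol synthesis reductase gene. Among the named falls SPNCRNA.2492 dropped by 3.76, SPNCRNA.5756 by 3.74, SPNCRNA.5571 by 3.71, SPNCRNA.5428 by 3.55, SPNCRNA.2837 by 3.46, SPNCRNA.5515 by 3.43, SPNCRNA.5788 by 3.43 and SPNCRNA.7296 by 3.33. The treated ubp16 libraries held only 4 counts and 1 count of SPNCRNA.5428 and 2 and 5 counts of SPNCRNA.2837. SPNCRNA.5788, antisense to the ER oxidoreductin gene ero11, had 2.67 and 2.30 CPM in treated ubp16 cells, against 29.5 and 24.3 CPM in treated WT cells. Its groups lay far apart, whereas ero11 itself changed by 0.19.

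**Figure D3:**
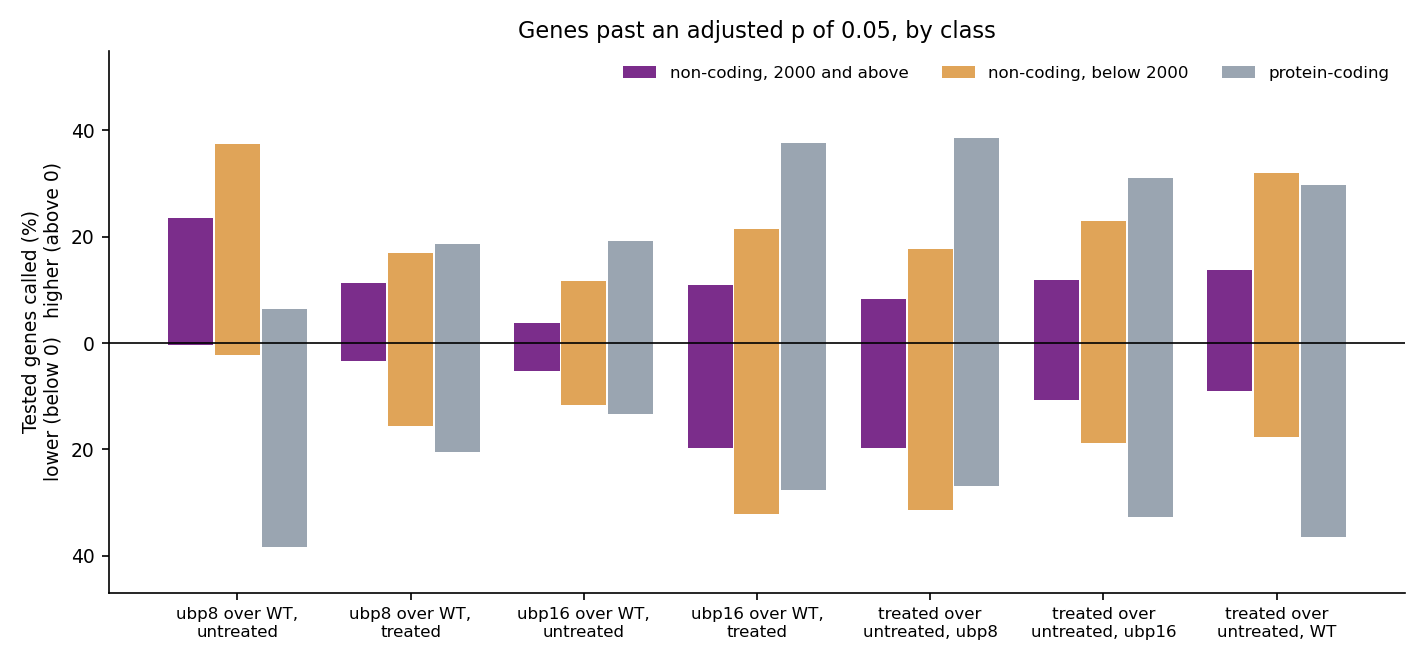
Percent of tested genes called higher (above 0) or lower (below 0) at an adjusted p under 0.05, by class and comparison. In untreated ubp8 over WT the RNAs numbered 2000 and above had 462 higher and 9 lower and those below 2000 had 436 and 27, while coding genes had 320 higher and 1901 lower of 4954, or 43 and 2 of the 160 with a mean under 50 counts.

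Within each strain, peroxide changed RNAs in both directions, with fewer calls per RNA tested than over all genes. In treated over untreated ubp8 cells 161 were higher and 389 lower, where 28% of all tested genes were higher and 25.8% lower (53.8% either way). Lower-numbered RNAs tilted the same way there, with 207 higher and 366 lower of 1166. So did coding genes with a mean under 50 counts, with 12 higher and 55 lower of 160. The untreated ubp8 libraries of this response also serve in untreated ubp8 over WT, where 462 RNAs were higher, so the 2 results are not independent. In ubp16 cells 234 were higher and 212 lower, where 25.2% of all genes were higher and 25.2% lower (50.3% either way). In WT cells 271 were higher and 178 lower, where 26.2% were higher and 27% lower (53.2% either way). The share of RNAs called either way differed by abundance. With a mean of at least 50 counts it was 43.1% in ubp8, 44.1% in ubp16 and 46.6% in WT cells. Below that mean it was 26.25%, 20.2% and 20.1%. Scaling by library totals moved the median of all tested genes to -0.38 in ubp8, -0.30 in ubp16 and -0.23 in WT cells, in place of -0.06, -0.05 and -0.04. On that scale the split was 114 higher and 610 lower in ubp8, 179 and 322 in ubp16, and 207 and 254 in WT cells, so the balance of directions in ubp16 and WT cells depends on the scaling.

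Single libraries bore on these counts. The ubp8 count of higher RNAs was 95 without the first treated ubp8 library, and that of lower RNAs was 242 without the same library and 242 without the second untreated one. The ubp16 count of lower RNAs was 138 and 131 without the first and the second treated library and 140 without the first untreated one. The WT count of lower RNAs was 100 without the second treated library and 111 without the first untreated one.

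Each response drew on its own libraries, so the lists can be set side by side. In all 3 strains 64 RNAs were higher and 69 lower. The ubp8 and WT responses shared 106 higher RNAs, which is 65.8% of the ubp8 list and 39.1% of the WT list, and 111 lower ones, which is 28.5% of the ubp8 list and 62.4% of the WT list. The ubp16 and WT responses shared 90 higher RNAs (38.5% of the ubp16 list and 33.2% of the WT list) and 80 lower ones (37.7% and 44.9%). Opposite calls numbered 3 between ubp8 and WT and 13 between ubp16 and WT. At least 1 of the 7 comparisons between groups called 1301 of the 1964, and 663 were called in none. These overlaps were not counted over all tested genes, so they cannot be read as particular to these RNAs.

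SPNCRNA.3662 lies antisense to bud6, a gene of actin organisation, and starts 116 bases after the end of SPAC15E1.02c on the same strand. It had 35.8 and 39.5 CPM in treated and 0.195 and 0.265 CPM in untreated WT cells and was called higher with treatment. The untreated WT libraries held only 2 and 3 counts, so no fold is given for WT. In ubp8 cells it had 14.2 and 15.8 CPM treated and 0.780 and 1.11 CPM untreated, a rise of 3.96 ± 0.28. In ubp16 cells it had 7.63 and 4.90 CPM treated and 0.850 and 0.485 CPM untreated, a rise of 3.16 ± 0.34. The groups lay apart in every strain. The difference from the WT response passed the threshold in both mutants, and its size rests on the same few untreated WT counts. The gene before it rose too, SPAC15E1.02c changing by 4.85 in ubp8, 1.73 in ubp16 and 5.62 in WT cells, while bud6 changed by at most 0.32 in size.

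SPNCRNA.5756 responded in WT cells and not detectably in either mutant. Its levels were 7.48 and 10.5 CPM in treated and 7.87 and 7.85 CPM in untreated ubp8 cells, and 6.07 and 4.70 CPM in treated and 6.44 and 2.72 CPM in untreated ubp16 cells. In WT cells they were 77.03 and 67.7 CPM treated and 8.30 and 5.92 CPM untreated. Treated and untreated libraries overlapped in both mutants and stood apart in WT, where the RNA rose by 3.35 ± 0.26. The changes were 0.18 ± 0.27 in ubp8 and 0.18 ± 0.32 in ubp16 cells, and the differences from WT were -3.17 ± 0.37 and -3.17 ± 0.41. Its divergent partner prp1 changed by -0.01 in WT cells.

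SPNCRNA.5948 starts 175 bases from SPBC30D10.14 and points away from it. It had 21.8 and 15.1 CPM in treated and 2.34 and 1.24 CPM in untreated WT cells, a rise of 3.37 ± 0.40, and changed by 0.36 in ubp8 and 1.00 in ubp16 cells. SPBC30D10.14 rose in all 3 strains, by 2.92 in ubp8, 2.02 in ubp16 and 3.33 in WT cells, whereas the changes of the RNA in the mutants did not pass the threshold. SPNCRNA.4394, with 27.4% of its length opposite the small heat shock protein gene hsp9, rose by 3.04 in ubp8 and 5.17 in WT cells, where the untreated libraries held 3 and 6 counts, and changed by 0.76 in ubp16 cells. SPNCRNA.5604 rose by 3.0 and 4.38 in the same strains, and the untreated WT libraries held 2 and 12 of its counts. SPNCRNA.6127 rose by 2.68 in ubp8, 1.40 in ubp16 and 4.35 in WT cells, with 10 and 7 counts in untreated WT. SPNCRNA.3297, antisense to mug153, rose by 1.37 in ubp8 and 2.78 in WT cells.

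SPNCRNA.7704 starts 156 bases from gst2, a glutathione transferase gene, and the pair rose together in every strain. The RNA had 14.96 and 12.99 CPM in treated and 0.585 and 0.988 CPM in untreated ubp8 cells, 15.6 and 19.7 CPM in treated and 1.13 and 0.680 CPM in untreated ubp16 cells, and 4.10 and 3.65 CPM in treated and 0.977 and 0.0883 CPM in untreated WT cells, where the untreated libraries held 10 and 1 counts. It rose by 4.13 in ubp8, 4.22 in ubp16 and 2.89 in WT cells, where gst2 changed by 3.61, 3.98 and 1.75. After treatment both mutants also exceeded WT, the RNA by 1.85 in ubp8 and 2.18 in ubp16 cells.

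Among RNAs that fell with peroxide, SPNCRNA.4965 fell in all 3 strains. It lies antisense to med15, a Mediator subunit gene. It had 5.72 and 5.94 CPM in treated and 44.4 and 55.9 CPM in untreated ubp8 cells, 0.736 and 0.899 CPM in treated and 24.00 and 27.1 CPM in untreated ubp16 cells, and 7.58 and 5.13 CPM in treated and 25.2 and 24.5 CPM in untreated WT cells. The falls were 3.10 ± 0.18, 4.95 ± 0.27 and 1.97 ± 0.19 on the log2 scale, and med15 changed by 0.71, 0.49 and 0.62. SPNCRNA.3704 fell by 3.39 in ubp8, 1.18 in ubp16 and 2.58 in WT cells, opposite SPAC4H3.03c, which changed by 5.37, 2.90 and 6.15. SPNCRNA.4391, antisense to SPAC11E3.14, fell by 1.81, 1.74 and 2.20 in the same order of strains, and SPAC11E3.14 changed by 2.36, 1.34 and 2.48. SPNCRNA.7404 and SPNCRNA.3277 fell in all 3 strains as well, and in WT cells SPNCRNA.7404 fell by 2.67 and SPNCRNA.3277 fell by 2.51. In WT cells SPNCRNA.2850 fell by 2.13, SPNCRNA.5430 fell by 1.92, and SPNCRNA.6199, wholly antisense to the histone deacetylase gene sir2, fell by 1.91.

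The mutants had further named responses. In ubp8 cells SPNCRNA.7452 was higher after treatment, with 123 and 45 counts in treated and 1 and 0 in untreated libraries, too few for a fold change, and SPNCRNA.3639 and SPNCRNA.4116 rose by 3.02 and 2.34. SPNCRNA.5191, SPNCRNA.7478, SPNCRNA.5799 and SPNCRNA.3799 fell there by 2.71, 2.02, 1.97 and 1.90. In ubp16 cells SPNCRNA.7452 was higher too, with 1178 and 605 counts in treated and 0 and 4 in untreated libraries, and SPNCRNA.3639, SPNCRNA.4254, SPNCRNA.7417, SPNCRNA.2146 and SPNCRNA.4116 rose by 5.29, 5.25, 3.80, 3.42 and 3.08. SPNCRNA.5428, SPNCRNA.2553, SPNCRNA.5036, SPNCRNA.3799, SPNCRNA.2837, SPNCRNA.3821 and SPNCRNA.5799 fell in ubp16 cells by 5.06, 3.30, 3.07, 2.85, 2.74, 2.70 and 2.69. Treated ubp16 levels rested on few counts for several of these: 4 and 1 for SPNCRNA.5428 and 1 and 10 for SPNCRNA.2553. They were 10 and 1 for SPNCRNA.3799 and 2 and 5 for SPNCRNA.2837.

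**Figure D4:**
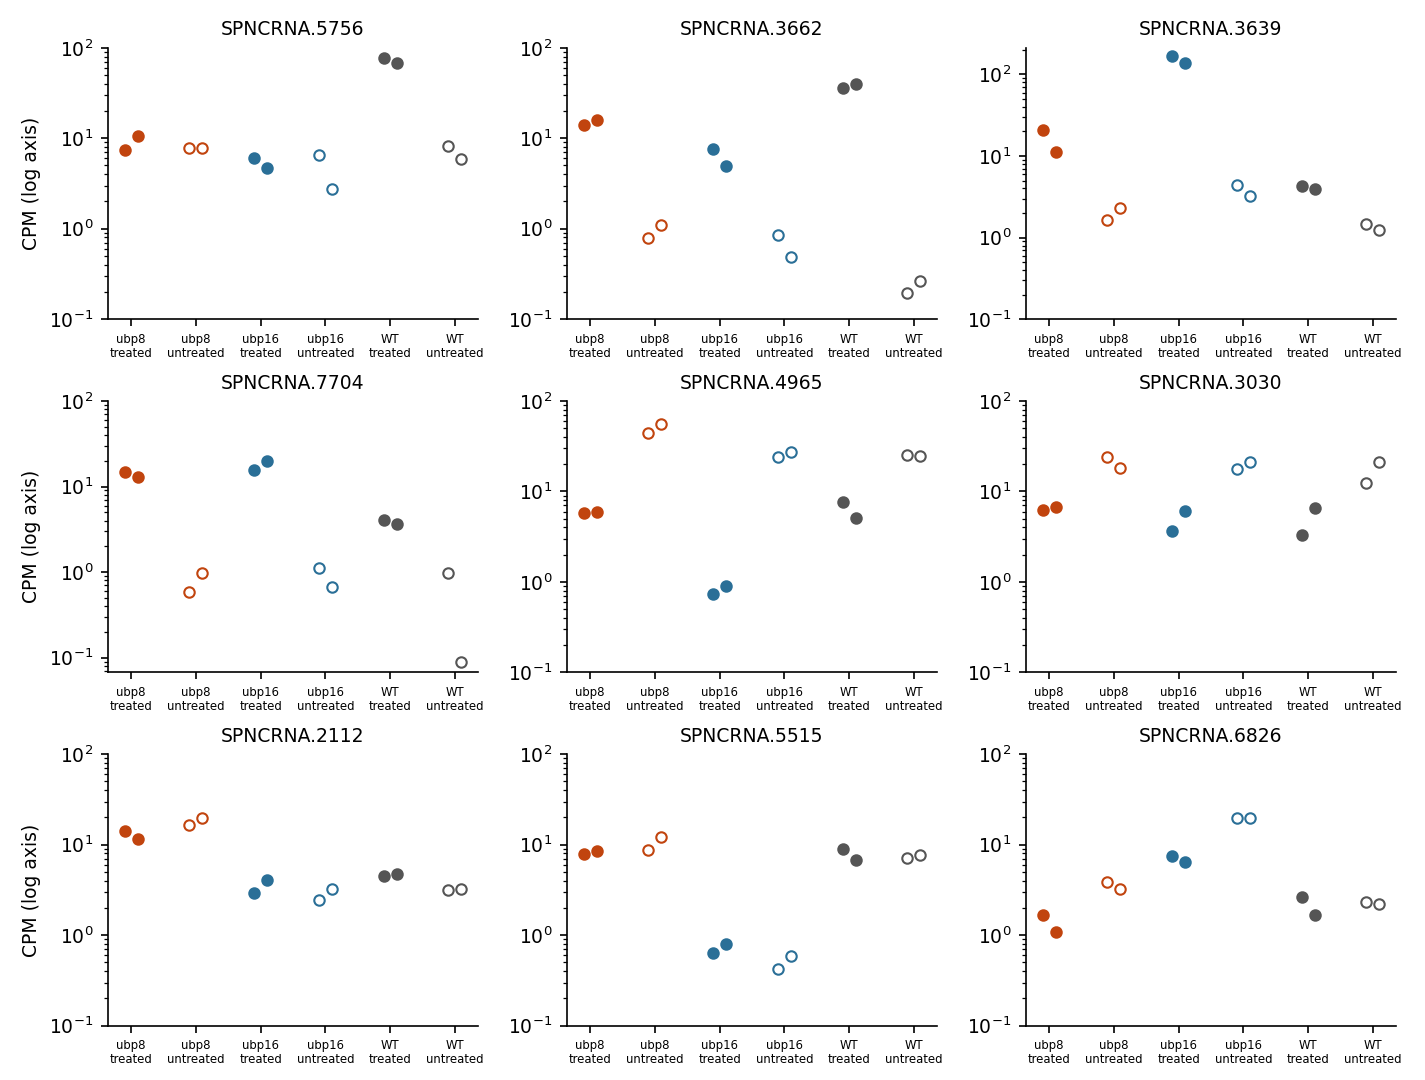
Level of 9 RNAs in every library, in CPM on a log axis (filled: treated, open: untreated; n = 2 per group). SPNCRNA.5756 stands at 67.7 and 77.0 CPM in treated WT cells and at most 10.5 CPM elsewhere, whereas SPNCRNA.3639 is highest in treated ubp16 cells at 166 and 137 CPM.

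The difference between a mutant's response and that of WT was tested for each RNA. For ubp8, 1 RNA was higher and 93 were lower, where 10.5% of all tested genes were higher and 6.34% lower (16.8% either way), and the median was -0.42. By place the lower ones were 60 of 1673 antisense, 20 of 144 divergent and 11 of 139 other RNAs. Lower-numbered RNAs moved in the same direction, 22 higher and 225 lower of 1166. The count of 93 was 20 without the first treated WT library, 34 without the second untreated WT library, 23 without the first treated ubp8 library, 26 without the second untreated ubp8 library, 51 by DESeq2 and 152 with no filter. For ubp16, 63 were higher and 103 lower, where 13% of all genes were higher and 14.4% lower (27.4% either way). The number higher was 40 without the first untreated WT library and 41 without the first treated ubp16 library, and the number lower was 58 without the first treated WT library and 63 without the first treated ubp16 library.

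Changes of divergent RNAs and their partner genes were positively correlated, and those of antisense RNAs and the genes opposite only weakly correlated. Across 141 divergent pairs with both members tested, the log2 responses correlated at a Pearson r of 0.476 in ubp8, 0.464 in ubp16 and 0.480 in WT cells. Antisense RNAs that also start beside a coding gene and point away from it are not in these 141 pairs. In WT cells 30 of the 48 called divergent RNAs had a partner called the same way and 8 a partner called the opposite way. Of all tested coding genes 29.7% were higher and 36.5% lower there, and the shares among the partners alone were not counted. Between the strains r was 0.331 in untreated and 0.367 in treated ubp8 over WT cells, and 0.300 and 0.301 in the same comparisons of ubp16. For the differences of responses it was 0.182 in ubp8 and 0.231 in ubp16. By ranks (Spearman) the responses of these pairs correlated at 0.412 in ubp8, 0.408 in ubp16 and 0.361 in WT cells. The rank values were 0.253 and 0.296 in untreated and treated ubp8 over WT cells, and 0.169 and 0.315 for ubp16. For the differences of responses they were 0.277 in ubp8 and 0.321 in ubp16. In untreated ubp8 over WT cells 7 of the 40 called divergent RNAs had a partner called the same way and 9 a partner called the opposite way. Of all tested coding genes 6.46% were higher and 38.4% lower in that comparison. For the ubp8 difference of responses the counts were 1 and 4 of 20, where 16.8% of all tested coding genes were higher and 3.75% lower. Across 1661 antisense pairs r lay between -0.103 and 0.074 over the 9 comparisons. In the 185 pairs whose RNA had a mean of at least 50 counts it lay between -0.176, in untreated ubp16 over WT, and 0.111, in treated ubp8 over WT. Of 87 antisense RNAs lower in untreated ubp16 cells the gene opposite was higher for 37 and lower for 9, where 20.3% of the genes in these pairs were higher and 10.6% lower. Of 198 antisense RNAs higher in treated WT cells the gene opposite was higher for 71 and lower for 65, and of 153 lower ones the gene was higher for 72 and lower for 40, where 28.4% of the genes in these pairs were higher and 41.1% lower. In 698 pairs where the RNA starts within 1000 bases after a coding gene on its own strand, r was 0.220 in ubp8, 0.281 in ubp16 and 0.196 in WT cells. These are descriptions across pairs of 1 genome that share libraries and, in part, genes.

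**Figure D5:**
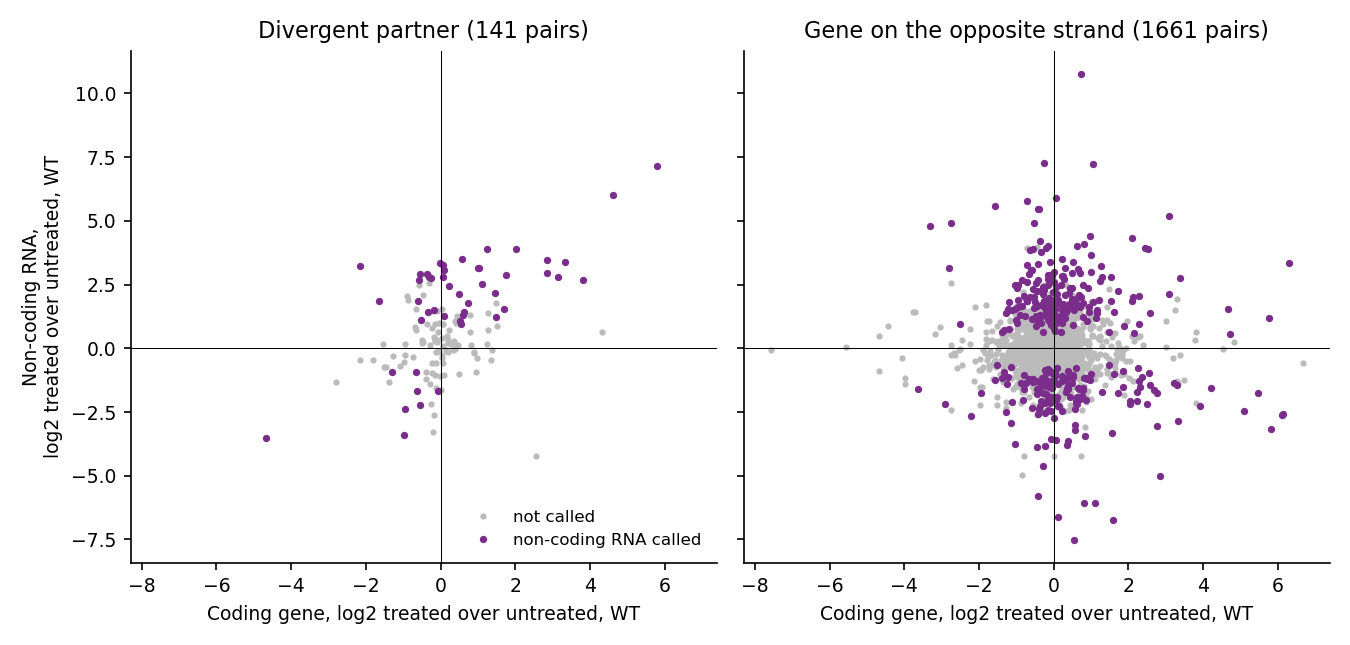
Log2 change with peroxide in WT cells of each non-coding RNA (vertical) and of its coding partner (horizontal), for 141 divergent pairs (left) and 1661 antisense pairs (right); purple marks RNAs called at an adjusted p under 0.05. The divergent pairs lie along a rising band (r = 0.480), and the antisense pairs show none (r = -0.032).

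A list of 41 genes of the stress response, deubiquitination, mating and phosphate uptake was checked for RNAs opposite them. A high-numbered RNA lay opposite 25 of the genes, 40 RNAs in all, of which 15 were tested and 11 were called in at least 1 comparison between groups, as were 1301 of all 1964 tested. SPNCRNA.3030 lies wholly opposite ssa1, which encodes an Hsp70 chaperone. It had 6.23 and 6.77 CPM in treated and 23.9 and 18.2 CPM in untreated ubp8 cells, 3.68 and 6.10 CPM in treated and 17.8 and 21.2 CPM in untreated ubp16 cells, and 3.26 and 6.61 CPM in treated and 12.4 and 21.4 CPM in untreated WT cells. Treated and untreated libraries did not overlap in any strain, and the changes were -1.70, -2.0 and -1.77, while ssa1 changed by 4.71, 5.90 and 5.47. SPNCRNA.5237, opposite the stress transcription factor gene atf1, went the same way as its gene: it changed by 2.77 in ubp8 and 2.24 in ubp16 cells, and atf1 by 1.75 and 1.15. In WT cells, where atf1 changed by 1.71, the RNA had 8 and 10 counts in treated and 2 and 2 in untreated libraries, too few for a fold change, and in no library did it exceed 2.49 CPM. SPNCRNA.4190, opposite the glutaredoxin gene grx1, changed by 1.17, 2.69 and 2.05.

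Other called RNAs of this list had low levels. SPNCRNA.6202, opposite the disaggregase gene hsp104, had 0.460 and 0.300 CPM in treated ubp16 cells, against 3.37 and 3.26 CPM in treated WT cells, from 5 and 3 counts in ubp16, a change of -3.08. SPNCRNA.2982, opposite the transcription factor gene pap1, had 0.212 and 0.0971 CPM in untreated ubp16 cells, against 1.17 and 1.59 CPM in untreated WT cells. SPNCRNA.5294, opposite ubp11, changed by 1.38 in WT cells. SPNCRNA.4347, opposite the phosphatase gene pyp2, stayed at or under 1.67 CPM in every library. It was called in ubp8 and WT cells, with 0 and 2 counts in treated and 11 and 27 in untreated ubp8 libraries and 3 and 1 in treated and 13 and 12 in untreated WT libraries, too few for a fold change. SPNCRNA.4681, opposite tgp1, differed by 1.17 in untreated ubp8 over WT cells. SPNCRNA.6616, opposite pho84, had 18 and 17 counts in treated ubp16 libraries, against 0 and 4 in treated WT libraries. With SPNCRNA.4394 and SPNCRNA.6826, described above, these make up the 11. Opposite ubp8 lay SPNCRNA.2244, which was too scarce to test.

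Lists of genes that degrade or silence non-coding RNA were read in the same fit. In untreated ubp8 over WT cells, none of 20 genes of the nuclear exosome and its cofactors was higher and 12 were lower, with a median of -0.27, where all coding genes had a median of -0.21 and 1901 of 4954 were lower. The values ran to -0.52 for pab2, -0.49 for the RNA elimination factor mmi1, -0.48 for the catalytic subunit dis3 and -0.44 for the helicase mtr4. Of 16 genes of termination and repression of cryptic transcripts none was higher and 12 were lower, among them dhp1, the nuclear exonuclease of termination, and set2, the histone H3 lysine methyltransferase, each at -0.51. Of 10 cytoplasmic decay genes 2 were lower, and of 10 RNA interference genes 2 were higher, arb1 by 0.37 and arb2 by 0.51. In treated ubp16 over WT cells 7 of the 10 RNA interference genes were higher, from 0.45 for ago1 and 0.85 for dcr1 to 1.33 for cid12, where 1866 of the 4954 coding genes were higher. With peroxide in WT cells 13 of the 20 exosome genes were lower and 3 higher, with rrp41 at -2.01 and rrp6 at -1.40, where 1810 of the 4954 coding genes were lower and 1473 higher. Their part in the levels of the non-coding RNAs was not tested. The untreated ubp8 values depend on the scaling: by library totals the median of all coding genes was 0.09 in place of -0.21, and the split of these lists was not recounted on that scale.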

How the data were processed

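The data are whole-number counts of reads per gene in 12 libraries, deposited by the authors as 1 table with no normalization. Per the submitters' processing notes the tools were FastQC, Trimmomatic, STAR, HTSeq and DESeq2; their versions, the strand setting of the counting and the genome build are not given in the sources used here. Per the labels, RNA was polyA-selected and the libraries were stranded. The ASM294v3 annotation served for names, lengths and neighbours only.

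Genes were filtered with filterByExpr by group, scaled by TMM and fitted over all 6 groups in edgeR 4.0.16 (with limma 3.58.1, R 4.3.3) by the quasi-likelihood test, with p-values adjusted by Benjamini-Hochberg over the 8166 tested genes in each of 9 comparisons: 3 responses to peroxide, 4 mutant-over-WT comparisons and 2 differences of responses. CPM values use the TMM-scaled totals. The procedure was tested on simulated data with the same dispersion (spread between libraries) set for every gene. All genes changed there had a mean of at least 50 counts. How well changes are found in the 1760 tested RNAs below that mean was not covered. Totals of 9904056 to 14054746 counts set the precision, and with 2 libraries a group 6 residual degrees of freedom remained.

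RNAs are named where they had a mean of at least 50 counts, groups that did not overlap and a call in every alternative, up to 8 per direction (5 for differences of responses) by size of change; RNAs opposite the listed stress genes are named in addition. The numbering rule and gene lists were chosen with earlier results of these data known. Alternatives were other scalings, filters, DESeq2 1.42.0, a replicate block, the libraries of a comparison alone, and leaving out each library.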

Additional observations from a re-analysis of the deposited data

Results flagged for a closer look

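For 15 results the response to peroxide differed between a mutant and WT by the test of that difference in edgeR's quasi-likelihood fit, at a Benjamini-Hochberg adjusted p under 0.05, and the values are log2 differences, mutant response minus WT response.

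The ubp8 response was below that of WT for SPNCRNA.3662 (-3.32), SPNCRNA.5756 (-3.17), SPNCRNA.5948 (-3.01), SPNCRNA.5788 (-1.56) and SPNCRNA.7296 (-1.43). All 5 were called higher with treatment in WT cells, and the last 2 lie antisense to ero11 and trp1322.

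The ubp16 response was above that of WT for SPNCRNA.4254 (5.58), SPNCRNA.3639 (3.68), SPNCRNA.2146 (2.63), SPNCRNA.3744 (2.37) and SPNCRNA.6315 (2.20), the last with 15.9% of its length opposite ssn6. For SPNCRNA.4254 the untreated ubp16 libraries held 5 counts and 1 count. It was below that of WT for SPNCRNA.4394 (-4.42), SPNCRNA.3662 (-4.12), SPNCRNA.5428 (-3.83), SPNCRNA.5604 (-3.29) and SPNCRNA.5756 (-3.17). SPNCRNA.3662 and SPNCRNA.5756 thus differed from WT in both mutants, in tests that share the 4 WT libraries. The size of both SPNCRNA.3662 values rests on 2 and 3 counts in the untreated WT libraries. That of SPNCRNA.4394 rests on 3 and 6 there, and that of SPNCRNA.5604 on 2 and 12. The size for SPNCRNA.5428 rests on 4 counts and 1 count in the treated ubp16 libraries.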

How the results depend on the processing

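Counts of called RNAs moved by more than 1.5 times under these settings. With library totals 610 were lower in the ubp8 response, 322 in the ubp16 response and 1 in untreated ubp8 cells; TMM from coding genes also left 1 in the last, and a mean of at least 10 counts left 4. DESeq2 called 302 higher and 1 lower in untreated ubp8, 148 higher in treated ubp8, and 2 higher and 51 lower for the difference of the ubp8 response. Fitting only the libraries of a comparison gave 31 higher and 64 lower in untreated ubp16 and 2 higher for the ubp8 difference, where no filter gave 3 higher and 152 lower. The cause of these moves was not tested. Without the 10 most abundant RNAs the share in treated ubp8 cells was 0.438%, which differs from the mean with all of them, 0.454%, by more than the SD between its 2 libraries.

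Leaving out 1 library at a time gave these ranges, higher and then lower: 95 to 178 and 242 to 468 in the ubp8 response, 175 to 252 and 131 to 215 in the ubp16 response, 182 to 289 and 100 to 197 in the WT response, 176 to 484 and 0 to 9 in untreated ubp8, 28 to 72 and 60 to 110 in untreated ubp16, 119 to 256 and 24 to 77 in treated ubp8, 155 to 230 and 260 to 418 in treated ubp16, 0 to 2 and 20 to 114 for the ubp8 difference, and 40 to 69 and 58 to 91 for the ubp16 difference. The share with 1 library left per group was 0.450% to 0.459% and 0.681% to 0.744% in treated and untreated ubp8, 0.318% to 0.372% and 0.311% to 0.391% in ubp16, and 0.328% to 0.388% and 0.334% to 0.385% in WT cells.

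The correlation across antisense pairs changed sign when RNAs with a mean under 50 counts were left out: 0.00633 in the ubp16 response (-0.0226 with all pairs), 0.0587 in the WT response (-0.0318) and -0.0513 in treated ubp16 (0.0368).

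Whether replicate numbers pair the samples is not stated in the labels. Deviations of same-numbered treated and untreated libraries correlated at 0.220 in ubp8, 0.218 in ubp16 and 0.176 in WT cells, and at -0.130 to 0.309 over all 15 pairs of groups, so the numbers were not taken as pairs. With the replicate block the higher and lower counts were 171 and 415 in the ubp8 response, 243 and 229 in the ubp16 response, and 270 and 190 in the WT response. For the ubp8 difference 3 RNAs were higher with the block, against 1 without, which is the 1 count it moved by over 1.5 times. For single RNAs, 2904 values kept direction and call and 71 lost the call. At these depths the 3804 RNAs that failed the filter could not be tested. A planned count of promoter motifs was not run, as no sequence of the build used for the counts was at hand.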
